A study of Rattus norvegicus with 6 samples.

Results

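The genes described here are 9 transporters that take sugars and amino acids back from the tubular fluid in the proximal tubule of the kidney, measured in rat renal cortex after the fungicide chlorothalonil. They were taken by name and found on the array as every probe other than controls whose RefSeq transcript belonged to one of them, which gave 16 of 61537 probes and 9 of 15645 gene symbols. By the part of the tubule in which rodents are known to express them most, 5 were taken as early segment genes (Slc5a2, Slc2a2, Slc6a19, Slc7a7 and Slc7a9) and 4 as late segment genes (Slc5a1, Slc7a13, Slc3a1 and Slc1a1). The treated group was 3 male Sprague-Dawley rats dosed with chlorothalonil at 500 mg/kg/day for 4 weeks, and the control group was 3 male Sprague-Dawley rats that received the vehicle corn oil for 4 weeks. All were 5 weeks old when obtained, and each animal gave 1 Agilent 1-colour array of total RNA.

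The 3 chlorothalonil arrays lay on one slide and the 3 corn oil arrays on another, scanned on different days, so slide and treatment cannot be told apart in any comparison below. Chlorothalonil replicate 3 carries labels that disagree, its source name giving ethylenediamine dihydrochloride and its title, treatment and dose giving chlorothalonil. Values without it are given for the early and late medians and for several genes, but not for every result. Between 38234 and 41711 probes per array were well above the array's background, and the number of arrays limits the precision. All 16 member probes were well above background on all 6 arrays, none was saturated or marked as an outlier, and all passed the filter on dim probes. All 8 proximal tubule markers listed, among them Lrp2, Cubn, Aqp1 and Slc34a1, were well above background on all 6 arrays. Markers of other kidney cells, such as Umod and Aqp2, were so too. Detection alone therefore does not tell renal cortex from other kidney tissue. The summed signal of the 8 proximal tubule markers is in multiples of the array's 75th percentile. It was 2096 to 2171 in the chlorothalonil group and 1863 to 1980 in the corn oil group. In whole tissue, fewer cells of a type and less RNA per cell cannot be told apart.

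The proximal tubule recovers nearly all filtered glucose and amino acids. Glucose enters the cell from the fluid with sodium, through SGLT2 (Slc5a2) in the early, convoluted part and SGLT1 (Slc5a1) in the late, straight part. In the early part it leaves towards the blood through GLUT2 (Slc2a2). Neutral amino acids enter through B0AT1 (Slc6a19). Cystine and basic amino acids enter through b0,+AT (Slc7a9), which is joined to the heavy subunit rBAT (Slc3a1), and basic amino acids leave through y+LAT1 (Slc7a7). In rodents rBAT also pairs with AGT1 (Slc7a13) in the late segment, where the acidic amino acid carrier EAAC1 (Slc1a1) is found as well. The transcription factor HNF4 alpha is known to drive many genes of this cell type.

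None of the 9 transporters passed an adjusted p of 0.05 in limma, where 3.12% of all 29115 features did. At an unadjusted p under 0.05 there were 3 of 9, all lower with chlorothalonil and all early segment genes (Slc7a7, Slc5a2 and Slc2a2), against 10.1% of all features that were lower at that level. For the same 3 genes every chlorothalonil array lay below every corn oil array, which held for 14% of all features. For Slc5a1 every chlorothalonil array lay above, as for 13.6% of all features. The median log2 fold change was −0.35 over the 5 early genes and 0.18 over the 4 late ones, beside 0.0035 over all features. Of the early genes 4 lay below 0, and of the late genes 4 lay above 0. Of all features 49.2% lay below 0 and 50.8% above. Without chlorothalonil replicate 3, 3 of the 5 early genes lay below 0 with a median of −0.33, and 3 of the 4 late genes lay above 0 with a median of 0.067. The difference between early and late genes was not tested.

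The promoters of the 3 early genes whose groups did not overlap are shown because they are the members that lay lowest together. Each runs from 250 bases before to 50 after the start of the gene and was taken from RefSeq, build GRCr8, 5′ to 3′. The capitals mark a match to TGACNNNGC, the core of the antioxidant response element, sought on both strands.
Slc5a2, chr1:192277371-192277670, + strand: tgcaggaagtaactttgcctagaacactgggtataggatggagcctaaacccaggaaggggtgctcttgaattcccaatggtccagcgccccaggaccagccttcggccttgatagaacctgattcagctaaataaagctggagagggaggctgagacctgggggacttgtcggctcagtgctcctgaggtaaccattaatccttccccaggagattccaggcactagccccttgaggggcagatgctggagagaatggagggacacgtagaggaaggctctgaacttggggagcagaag
Slc2a2, chr2:113540120-113540419, + strand: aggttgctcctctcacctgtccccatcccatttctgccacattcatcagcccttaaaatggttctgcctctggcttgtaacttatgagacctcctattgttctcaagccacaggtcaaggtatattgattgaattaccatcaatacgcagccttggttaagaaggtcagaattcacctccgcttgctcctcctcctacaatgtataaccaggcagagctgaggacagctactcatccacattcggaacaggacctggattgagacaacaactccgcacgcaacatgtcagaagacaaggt
Slc7a7, chr15:31835634-31835933, - strand: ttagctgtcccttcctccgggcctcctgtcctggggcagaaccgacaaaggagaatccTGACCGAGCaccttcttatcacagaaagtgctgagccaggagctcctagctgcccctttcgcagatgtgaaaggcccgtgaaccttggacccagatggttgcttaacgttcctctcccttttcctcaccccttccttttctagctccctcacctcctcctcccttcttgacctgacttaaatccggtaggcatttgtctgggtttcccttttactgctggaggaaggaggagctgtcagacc
The match in Slc7a7 begins 192 bases before the start of the gene, and no such letters were found in the Slc5a2 and Slc2a2 windows. The sequence table held 7 of the 9 members, not Slc7a13 and Slc1a1. Among these 7 the motif was found in Slc7a7 and Slc3a1, against 12.1% of 33469 rat promoters. An exact match to CAAAGTCCA, an HNF4 motif, was found only in Slc3a1 among the 7, and in 0.391% of all promoters. Matches were sought on both strands and are a description of the letters only.

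Slc5a2, the sodium and glucose carrier SGLT2, is measured by 3 probes. On its brightest probe the log2 signal, taken relative to each array's own 75th percentile, was 7.04, 6.92 and 7.12 in chlorothalonil replicates 1 to 3 and 7.54, 7.29 and 7.31 in corn oil replicates 1 to 3. The groups did not overlap, and corn oil replicate 1 was the highest array. The log2 fold change was −0.35 ± 0.098 (SE, n = 3 each), which is 78.2% of the corn oil level, with a limma adjusted p of 0.131. The other probes of Slc5a2 lay at −0.39 and −0.33, again with all chlorothalonil arrays below, as for 13% of all probes. Their probe-level adjusted p in limma was 0.0803 and 0.185, and 2.67% of the 39862 kept probes passed. With quantile normalization between arrays, Slc5a2 passed, with −0.50 ± 0.086 and a limma adjusted p of 0.0454. Without chlorothalonil replicate 3 the value was −0.40, and without corn oil replicate 1 it was −0.27. For comparison, 7 spike-in RNAs that match no rat gene were brighter than the dimmest member. They differed between the chlorothalonil slide and the corn oil slide by −0.21 to 0.05 on the same scale. The brightest was at 0.05 and all the others lay below 0, between −0.21 and −0.10. Those nearest to Slc5a2 in level were at −0.19 and −0.10, with the same sign as Slc5a2 and the opposite sign to the members above 0. On this scale spike-ins are relative to the rat signal, and each slide holds 1 group. The source of their difference was not tested.

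**Figure D1:**
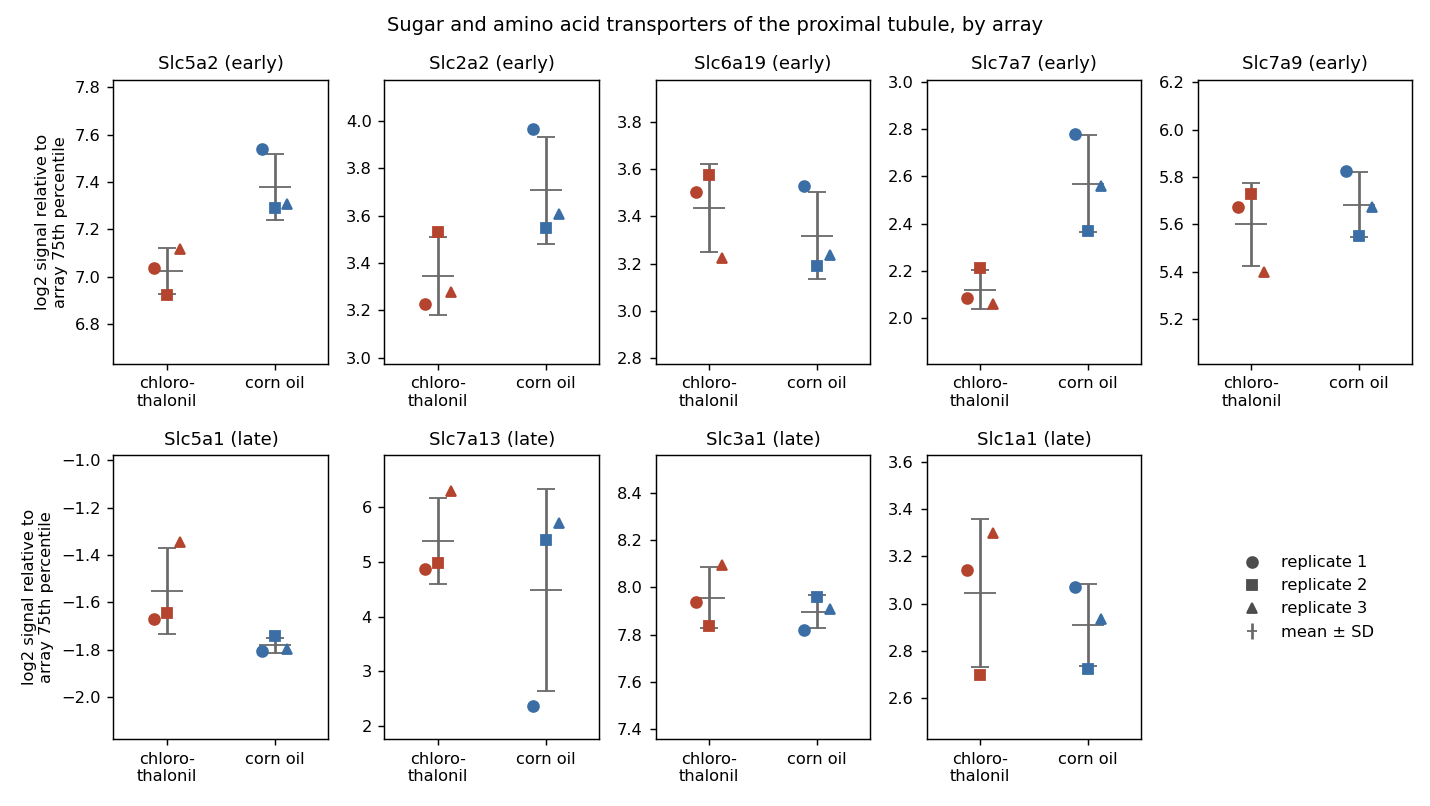
Log2 signal of each transporter on the 6 arrays, relative to the array's 75th percentile, with chlorothalonil left of corn oil. Each point is 1 animal and the bars give the mean ± SD; all panels span the same range of log2 units except Slc7a13, whose panel is wider. Slc5a2, Slc2a2 and Slc7a7 lie lower on every chlorothalonil array, and corn oil replicate 1 stands apart for Slc7a13.

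Pdzk1ip1, the small membrane protein MAP17 that SGLT2 needs for full activity, is the partner of Slc5a2. Its log2 signal was 5.26, 5.23 and 5.07 in chlorothalonil replicates 1 to 3 and 5.996, 5.74 and 5.52 in corn oil replicates 1 to 3. All chlorothalonil arrays lay below all corn oil arrays, and corn oil replicate 1 was again the highest. At −0.57 ± 0.13 on the log2 scale, with a limma adjusted p of 0.0961, it did not pass.

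Slc2a2, the glucose exit carrier GLUT2, had log2 signals of 3.23, 3.53 and 3.28 in chlorothalonil replicates 1 to 3 and 3.97, 3.55 and 3.61 in corn oil replicates 1 to 3 on the brightest of its 3 probes. The groups were separated by a small gap, between chlorothalonil replicate 2 and corn oil replicate 2. On the log2 scale the difference was −0.36 ± 0.14, or 77.8% of the corn oil level, with a limma adjusted p of 0.244. Its other probes lay at −0.28 and −0.35, and on the first of these chlorothalonil replicate 2 lay within the corn oil range. Without corn oil replicate 1, the highest array, the value was −0.23. When arrays were scaled on their medians the groups overlapped, at −0.31. With normexp background correction Slc2a2 was at −0.54 ± 0.13 without overlap, with a limma adjusted p of 0.0691.

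The late sodium and glucose carrier Slc5a1, SGLT1, was dim in this tissue. Its brighter probe had scanner signals of 281 to 331 on the chlorothalonil arrays and 257 to 286 on the corn oil arrays, before any scaling between arrays. In log2 units relative to the 75th percentile it was at −1.67, −1.65 and −1.34 in chlorothalonil replicates 1 to 3 and at −1.80, −1.74 and −1.80 in corn oil replicates 1 to 3. The 3 chlorothalonil arrays were all higher, with replicate 3 well above the other two. Its log2 fold change was 0.23 ± 0.10, with a limma adjusted p of 0.296, and 0.12 without chlorothalonil replicate 3. The second probe, at 0.15 ± 0.16, had overlapping groups. With normexp background correction the brighter probe had 0.060 and its groups overlapped too.

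Slc7a7, the y+LAT1 light chain through which basic amino acids leave towards the blood, had the smallest p of the 9. The log2 signal of its 1 probe was 2.09, 2.21 and 2.06 in chlorothalonil replicates 1 to 3 and 2.78, 2.37 and 2.56 in corn oil replicates 1 to 3. The chlorothalonil arrays lay close together and all below the corn oil arrays. The difference was −0.45 ± 0.12 on the log2 scale, or 73.3% of the corn oil level, with a 95% interval of −0.74 to −0.16 and a limma adjusted p of 0.121. In the 16 other fits its value stayed between −0.55 and −0.34 and its adjusted p between 0.0679 and 0.271. Slc3a2, the 4F2 heavy chain that y+LAT1 needs to reach the membrane, was at −0.21 ± 0.091 with non-overlapping groups and a limma adjusted p of 0.287. Of 11317 genes with a symbol measured on all 6 arrays, Cyb5r1 and Pax3 were among the 3 closest to Slc7a7 in profile, with root mean square distances over the 6 arrays of 0.0302 and 0.0477 log2 units. Their log2 fold changes were −0.47 and −0.52, and neither passed in limma.

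Slc7a9, the light chain of the cystine carrier, was at 5.67, 5.73 and 5.40 in chlorothalonil replicates 1 to 3 and at 5.82, 5.55 and 5.67 in corn oil replicates 1 to 3. The groups overlapped, with chlorothalonil replicate 3 the lowest array. This gave a log2 fold change of −0.084 ± 0.12, with a 95% interval of −0.38 to 0.21. Without chlorothalonil replicate 3 it was 0.017. With normexp background correction it was −0.26 ± 0.096, with all chlorothalonil arrays below all corn oil arrays and a limma adjusted p of 0.177. Its heavy subunit Slc3a1 was at 7.94, 7.84 and 8.09 in chlorothalonil replicates 1 to 3 and at 7.82, 7.96 and 7.91 in corn oil replicates 1 to 3, with the values of both groups interleaved. Slc3a1 had a log2 fold change of 0.060 ± 0.089, with a 95% interval of −0.16 to 0.28, and its second probe gave 0.075. The value of Slc3a1 turned to −0.16 with quantile normalization and to −0.0083 without chlorothalonil replicate 3.

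**Figure D2:**
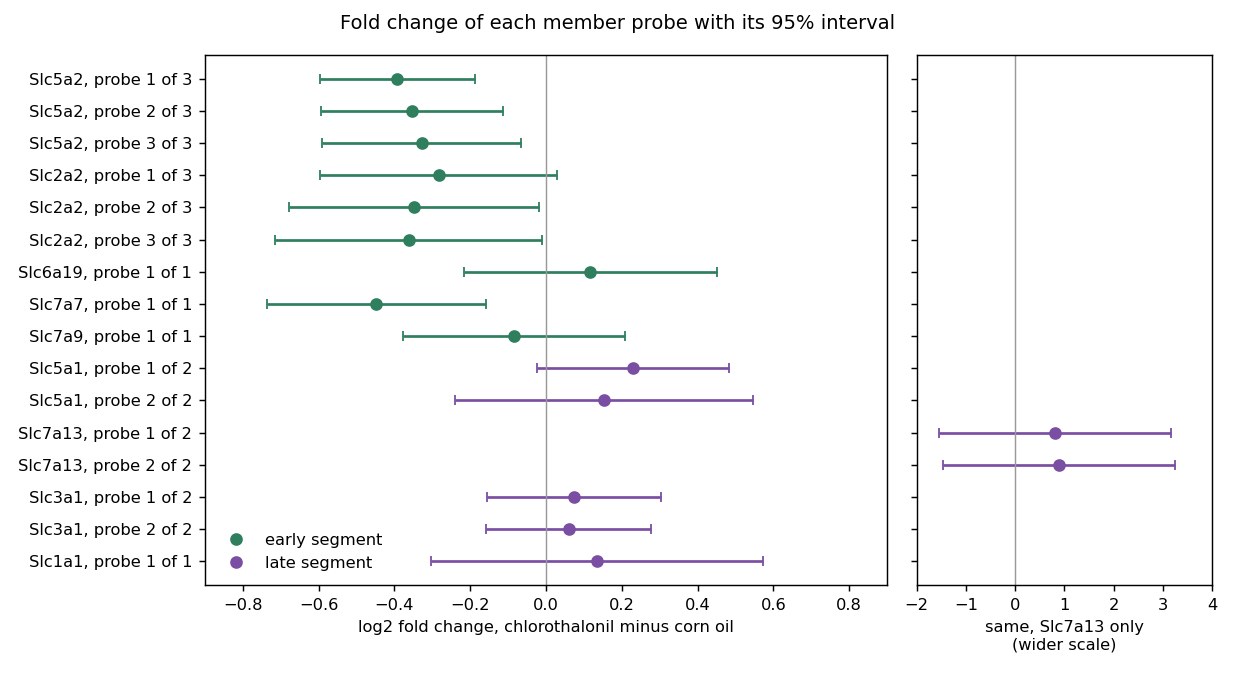
Log2 fold change of each of the 16 member probes, chlorothalonil minus corn oil, with its 95% interval from the probe-level fit; early segment genes are above and late ones below, and Slc7a13 has a wider axis of its own. The 3 probes of Slc5a2 lie between −0.39 and −0.33 with intervals below 0, and the 2 probes of Slc7a13 have intervals from below −1 to above 3.

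The neutral amino acid carrier Slc6a19 was at 3.50, 3.58 and 3.22 in chlorothalonil replicates 1 to 3 and at 3.53, 3.19 and 3.24 in corn oil replicates 1 to 3. It was the 1 early gene with a value above 0, but the groups overlapped throughout. Its log2 fold change was 0.12 ± 0.14, with a 95% interval of −0.22 to 0.45, and normexp background correction turned it to −0.039. Cltrn, or collectrin, which carries B0AT1 to the membrane in the kidney, was at 0.038 ± 0.076.

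Slc1a1, the acidic amino acid carrier EAAC1, was at 3.14, 2.70 and 3.30 in chlorothalonil replicates 1 to 3 and at 3.07, 2.73 and 2.93 in corn oil replicates 1 to 3. The corn oil values lay inside the chlorothalonil range. This gave 0.13 ± 0.18 on the log2 scale, with a 95% interval of −0.30 to 0.57, and 0.0087 without chlorothalonil replicate 3. Without chlorothalonil replicate 2 it was 0.31 ± 0.13, with the groups apart and a limma adjusted p of 0.355.

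Slc7a13, the AGT1 light chain, varied far more among animals than any of the other 8. On its brighter probe the log2 signal was 4.87, 4.98 and 6.30 in chlorothalonil replicates 1 to 3 and 2.36, 5.40 and 5.71 in corn oil replicates 1 to 3. Corn oil replicate 1 was the lowest array and chlorothalonil replicate 3 the highest, and the other 4 lay between them. As scanner signals before scaling, these were 26138, 29389 and 66080 on the chlorothalonil arrays and 4597, 40482 and 48727 on the corn oil arrays. The second probe of Slc7a13 had the same lowest and highest array, at −0.48 and 3.30. The log2 fold change of Slc7a13 was 0.89 ± 0.96, with a 95% interval of −1.47 to 3.26 and a limma adjusted p of 0.661. It turned to −0.17 without corn oil replicate 1 and was 0.44 without chlorothalonil replicate 3.

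The genes nearest to Slc7a13 in profile, looked up after its values had been seen, were Slc22a7, Mep1b and Slco1a6, with root mean square distances of 0.366, 0.400 and 0.403 log2 units over the 6 arrays. Slc22a7 is an organic anion transporter, Mep1b the beta subunit of the brush border protease meprin, and Slco1a6 an organic anion transporting polypeptide. Slc22a7 was at −2.15, −1.56 and −0.32 in chlorothalonil replicates 1 to 3 and at −4.02, −1.38 and −1.78 in corn oil replicates 1 to 3. Mep1b was at 3.63, 3.48 and 4.62 in chlorothalonil replicates 1 to 3 and at 1.86, 3.87 and 4.12 in corn oil replicates 1 to 3. Genes picked for nearness to Slc7a13 tend to share its extreme arrays. Slc22a7 and Mep1b each had the lowest signal in corn oil replicate 1 and the highest in chlorothalonil replicate 3, as did Slco1a6 at −1.97 and 0.77. That order was looked for after these values had been seen. It was shared by 3 of the 4 late members (Slc7a13, Slc5a1 and Slc3a1) and by 0 of the 5 early members. It was shared by 1 of 7 other late genes (Ggt1, gamma-glutamyl transferase) and by 5.62% of 29109 features measured on all 6 arrays. Slc7a13 is counted although the order was read from it. Slc5a1 had −1.804 in corn oil replicate 1 against −1.798 in replicate 3, and its second probe was lowest in corn oil replicate 3, at −2.69. Slc3a1 had 7.82 in corn oil replicate 1 against 7.84 in chlorothalonil replicate 2, and its second probe had the same order. Whether late genes share the order was not tested.

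**Figure D3:**
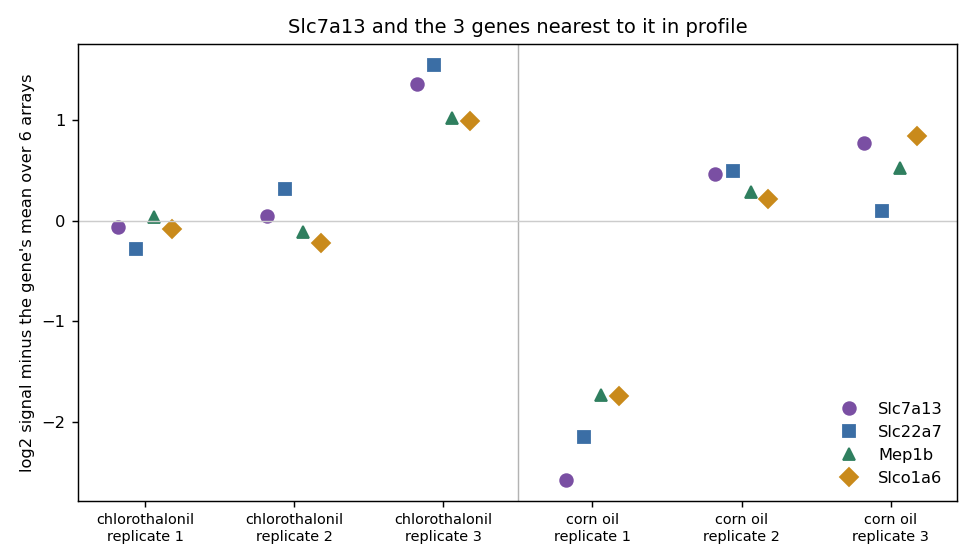
Log2 signal of Slc7a13 and of the 3 genes nearest to it in profile on each array, minus the gene's own mean over the 6 arrays, with the chlorothalonil arrays on the left. All 4 genes are lowest in corn oil replicate 1 and highest in chlorothalonil replicate 3, which genes picked for nearness to Slc7a13 tend to share with it.

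Other genes listed for their early or late place in the tubule gave no shared direction. Of 6 other early genes 0 passed in limma and 1 was under 0.05 before adjustment, while 2 lay below 0 and 4 above, with a median of 0.17. Slc5a12, a sodium and lactate carrier, was the one with the smallest p, at 2.01, 2.12 and 2.07 in chlorothalonil replicates 1 to 3 and 2.46, 2.24 and 2.31 in corn oil replicates 1 to 3. Its groups did not overlap, with a log2 fold change of −0.27 ± 0.081 and a limma adjusted p of 0.153. Of 7 other late genes 0 passed in limma and 1 was under 0.05 before adjustment, while 3 lay below 0 and 4 above, with a median of 0.0082. Aqp7, a channel for water and glycerol, had the smallest p, at 0.36 ± 0.093 with all chlorothalonil arrays above all corn oil arrays and a limma adjusted p of 0.113.

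Of 45 other sugar, inositol, amino acid and peptide transporters listed, 34 were measured, of which 2 rose, 1 fell and 31 did not pass in limma, where 3.12% of all features passed. Slc38a3, the carrier SNAT3 that brings glutamine into the tubule cell from the blood, was at 0.70, 0.70 and 0.83 in chlorothalonil replicates 1 to 3 and at −0.98, −0.21 and −0.45 in corn oil replicates 1 to 3. It rose by 1.29 ± 0.20, with an adjusted p of 0.0349. Slc2a1, the glucose carrier GLUT1, was at 1.81, 1.82 and 1.99 in chlorothalonil replicates 1 to 3 and at 1.37, 1.37 and 1.46 in corn oil replicates 1 to 3, and rose by 0.47 ± 0.077, with an adjusted p of 0.0393. Slc38a2, the neutral amino acid carrier SNAT2, was at 1.42, 1.20 and 1.27 in chlorothalonil replicates 1 to 3 and at 1.77, 1.94 and 1.87 in corn oil replicates 1 to 3, and fell, at −0.57 ± 0.087 with an adjusted p of 0.0346. All 3 were without overlap between the groups. When any 1 of the 3 chlorothalonil arrays or corn oil replicate 3 was left out, none of these calls remained in limma, and without corn oil replicate 1 or replicate 2 that of Slc38a3 did. The fold changes with 1 array left out stayed at −0.63 to −0.52 for Slc38a2, 0.41 to 0.51 for Slc2a1 and 1.07 to 1.46 for Slc38a3. With no filter on dim probes none of the 3 passed, and with the mean of a gene's probes Slc38a2 did not, at −0.45 with a limma adjusted p of 0.0669. The median log2 fold change over the 34 was 0.092, beside 0.0035 over all features.

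**Figure D4:**
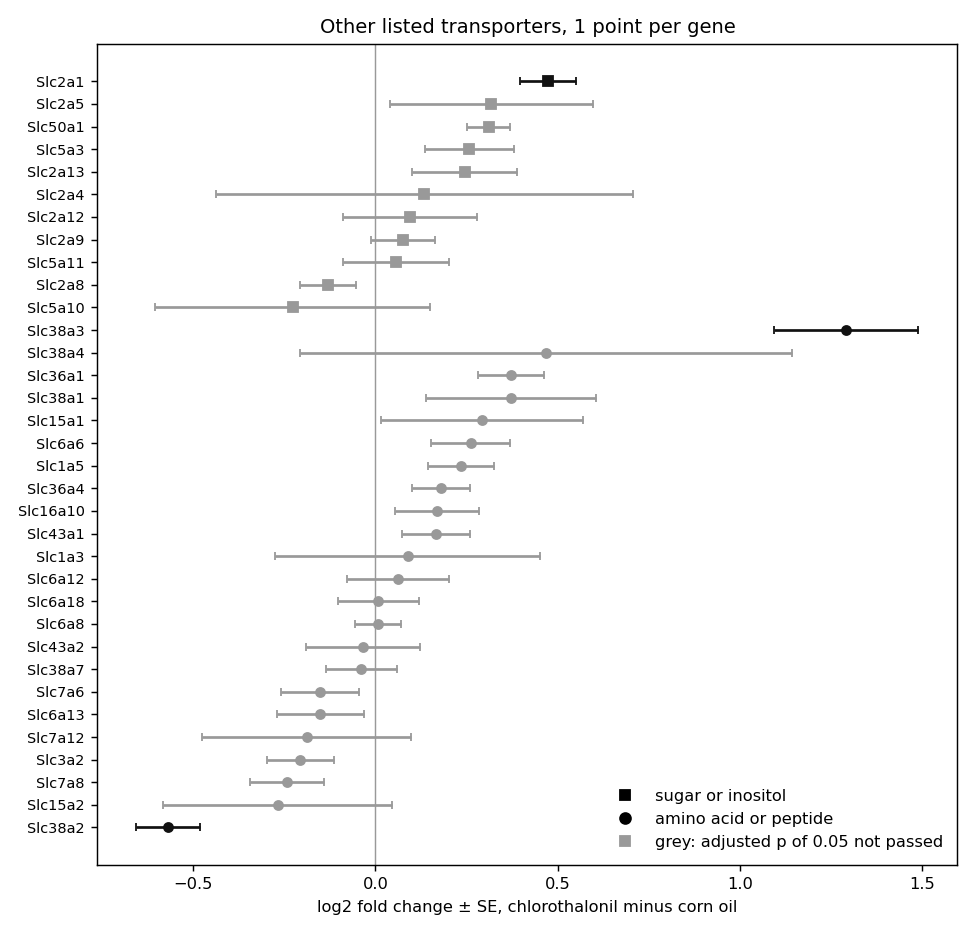
Log2 fold change ± SE, chlorothalonil minus corn oil, of the 34 other listed transporters measured, sugar and inositol carriers above amino acid and peptide carriers. Black points passed an adjusted p of 0.05: Slc2a1 and Slc38a3 above 0 and Slc38a2 below 0.

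Of 7 partners and regulators of these carriers 0 passed in limma and 1, Pdzk1ip1, was under 0.05 before adjustment. The transcription factor Hnf4a was at 3.55, 3.16 and 3.58 in chlorothalonil replicates 1 to 3 and at 3.53, 3.77 and 3.62 in corn oil replicates 1 to 3, with overlapping groups and a log2 fold change of −0.21 ± 0.14.

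Markers of cells were measured beside these values. Of the 8 proximal tubule markers 0 passed in limma and 3 were under 0.05 before adjustment, all higher, against 9.6% of all features that were higher at that level, with a median of 0.060. The smallest p was that of the phosphate carrier Slc34a1, at 0.27 ± 0.063 with a limma adjusted p of 0.0886. Of 27 measured markers of loop and distal tubule, collecting duct, podocytes, endothelium, immune cells and fibroblasts, 0 passed in limma and 3 were under 0.05 before adjustment. Of these 3, 2 were lower and 1 higher, where 10.1% of all features were lower and 9.6% higher at that level. The smallest p in each list was that of Calb1 at −0.56, Slc4a1 at 0.73, Podxl at 0.22, Cdh5 at 0.17, Adgre1 at −0.47 and Col3a1 at 0.44. In the chlorothalonil group the summed signal was 356 to 455 for loop and distal tubule markers, 158 to 229 for collecting duct, 27.9 to 36.1 for podocytes, 26.0 to 31.7 for endothelium, 3.17 to 3.83 for immune cells and 12.2 to 17.5 for fibroblasts. In the corn oil group it was 316 to 440 for loop and distal tubule markers, 140 to 176 for collecting duct, 25.7 to 31.8 for podocytes, 28.2 to 32.8 for endothelium, 3.25 to 4.80 for immune cells and 7.32 to 13.7 for fibroblasts. The ranges of the groups overlapped in each of these 6 lists, and not in that of the proximal tubule. A sum rests mostly on the brightest markers of its list. The mean log2 level of the 8 proximal tubule markers was also apart, at 7.40 to 7.42 with chlorothalonil and 7.36 to 7.39 with corn oil. Their median deviation from the corn oil mean overlapped, at 0.051 to 0.069 with chlorothalonil and −0.047 to 0.084 with corn oil. Of these 8 markers 3 lay below 0 and 5 above. The part of any cell type in the values above was not tested.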

How the data were processed

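Per the file headers, the authors' scanner output holds the intensity of each spot, linear, after background subtraction and spatial detrending by Agilent Feature Extraction (10.7 per the submitters' processing notes). The authors' deposited value table is a ratio of that signal to 1 constant per array, found by comparing the table with the scanner files. From the deposited intensity, log2 values were taken here, less the 75th percentile of the array. Gene symbols came from RefSeq (GRCr8), matched on accessions without their version. A probe was kept if 1 group or both had it well above background on every array, and if each group had 2 or more usable spots, which left 39862 probes. The probe with the highest mean stood for its gene, which gave 29115 features. The comparison, chlorothalonil minus corn oil with no covariate, used lmFit and eBayes of limma 3.58.1 (R 4.3.3). P-values were adjusted over all features by Benjamini-Hochberg at a threshold of 0.05, and fits were tested on simulated data. An exact permutation test of 3 arrays against 3 cannot go below 0.1 and was not used. All 9 members were named. Each other list gave its members past the threshold or the one with the smallest p, and profile neighbours were 3 per gene. Slc3a2, Cltrn, Hnf4a, Ggt1 and Slc50a1 are named outside this rule, after their values were seen, and a few genes that the lists or the rule gave are not reported here. Members, lists and tests were chosen with earlier results of these data known. Per the labels, the 3 animals of each group are biological replicates.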

Additional observations from a re-analysis of the deposited data

How the results depend on the processing

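Alternatives changed the background correction (normexp, offset 50), the scaling (quantile, array median, or the authors' deposited values), the dim probe filter, the treatment of outlier spots and of several probes per gene, the eBayes options, the block (replicate number) and the arrays used. With quantile normalization 1 member passed in limma, the early gene Slc5a2, and 2 member probes, both of Slc5a2. With trend and robust fitting 1 member probe passed, of Slc5a2 (adjusted p of 0.0302). In the other alternatives 0 members and 0 member probes passed, and 0 late members passed in any. Leaving out 1 array at a time kept the median of the early members between −0.40 and −0.23 and that of the late ones between 0.067 and 0.29. Values that changed sign were Slc6a19 with normexp (−0.039) and Slc3a1 with quantile normalization (−0.16). With 1 array left out, Slc7a9 lay between −0.15 and 0.017, Slc3a1 between −0.0083 and 0.12, and Slc7a13 between −0.17 and 1.51. None of these values passed in any fit. The count of other transporters past the threshold, 3, was 4 with normexp, with probes well above background on all 6 arrays and with trend and robust fitting (Slc50a1 in addition), 2 with the mean of a gene's probes, 0 with no filter on dim probes, 0 with the replicate block, and 0 to 1 with an array left out. With no filter and with the block the fold changes of the 3 were those of the main comparison (−0.57 for Slc38a2, 0.47 for Slc2a1 and 1.29 for Slc38a3). The block paired animals by replicate number only. Across features, deviations from the group means correlated at 0.095, 0.018 and 0.051 for same-numbered animals. For differently numbered animals they correlated at −0.090 to 0.053. Whether same-numbered animals share more than a number was not tested. With the replicate block 0 features passed in limma in place of 909. Over all features, with an array left out 112 to 388 passed, with normexp 1325 and with trend and robust fitting 1315 did, and with no filter on dim probes 172 did. Scaling to the array median moved the split of calls to 435 higher and 368 lower, where scaling to the 75th percentile gave 378 higher and 531 lower. The slide could not be fitted as a block, since each slide holds 1 group. The cause of these changes was not tested.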
